A study of Mus musculus with 18 samples.

Results

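The genes described here are the 43 nuclear genes that carry out mitochondrial gene expression from transcript to charged tRNA: the polymerase and its partners, the RNA-stabilizing and rRNA-modifying proteins, the translation factors, the mitochondrial aminoacyl-tRNA synthetases with the subunits of the glutamyl-tRNA amidotransferase, and the enzymes that modify the tRNA wobble base. They were taken by symbol from a list of names that holds no measured value but was chosen with earlier results of these data known. Among the 55450 genes of the files, 43 of 43 were found. All 43 also passed the filter on low counts that left 18494 genes for testing, with the lowest count of any of them in any tumor at 64. They fall into 10 genes of transcription and RNA handling, 11 translation factors, 19 genes of tRNA charging and 3 of tRNA modification.

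RNA was sequenced from 18 spontaneous tumors of the mouse mammary gland, each from its own animal per the series design. Every tumor was labelled MMTV-Cre(+), a Cre recombinase transgene whose promoter is active mainly in mammary epithelium, and carried Pikca(H1047R, het), the labels' spelling of the activating Pik3ca allele. On that shared background 14 tumors were labelled Cbfb(het), 1 was labelled Cbfb(homo) and 3 were labelled Cbfb(wt). Cbfb encodes the partner subunit of the RUNX transcription factors, and the nature of the altered allele is not stated. The animals were untreated, the labels give no age or batch, and the tumors are numbered here in the order of the samples.

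Mitochondria keep their own small genome and translate its mRNAs on their own ribosomes, and every protein needed for this is made from nuclear genes and imported. POLRMT, with TFAM and TFB2M, starts transcription, LRPPRC and SLIRP together stabilize the resulting mRNAs, and the ribosome then uses initiation, elongation and release factors that resemble those of bacteria. A mostly separate set of synthetases loads amino acids onto mitochondrial tRNAs, with glutaminyl-tRNA made indirectly by the amidotransferase of QRSL1, GATB and GATC. All 13 proteins made this way are parts of the respiratory chain and ATP synthase.

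Depth was even, between 33210239 and 40974166 rounded expected counts per tumor. The label check on Cbfb showed no lower level under the het label: its log2 CPM, a count scaled to library size, averaged 5.74 ± 0.63 over the 14 Cbfb(het) tumors, 4.2 in the Cbfb(homo) tumor and 5.13 ± 0.82 over the 3 Cbfb(wt) tumors (mean ± SD). The het and wt levels were not separated (two-sided exact permutation test, difference 0.61, p = 0.157, smallest possible 0.00147). Without Cbfb(wt) 1 the difference was 0.98 (exact permutation p = 0.025), and without Cbfb(wt) 2 it was 0.18. Markers of the labelled tissue were nearly absent in 3 libraries: 9 mammary epithelial markers summed to 149 TPM (transcripts in a fixed total, corrected for length) in Cbfb(het) 10, 151 in Cbfb(het) 14 and 121 in Cbfb(wt) 2, against 750 in Cbfb(het) 1, 1080 in Cbfb(het) 12 and 2400 to 5820 in the other 13. Cbfb(het) 10 and Cbfb(het) 14 are also much alike. Their counts differed by 4.62 chi-square units per degree of freedom, beyond sampling noise. The next closest pair of tumors differed by 97.9. Both Cbfb(het) 10 and 14 were kept, and correlations that rest on them are also given without them. The Cbfb difference was not computed without Cbfb(het) 10 and 14, which had the highest Cbfb, at 71.09 and 70.62 TPM, against 40.98 or less elsewhere. The files do not show whether they are independent samples, and group sizes and p-values that include both assume that they are. In bulk RNA, fewer cells of a type and less RNA per cell cannot be told apart.

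None of the 43 genes passed the adjusted threshold between Cbfb(het) and Cbfb(wt) tumors, where 0.0% of the 18494 genes did (edgeR quasi-likelihood test, Benjamini-Hochberg threshold 0.05). At an unadjusted p under 0.05 the count was 0 of 43, against 3.37% of all genes, 1.47% higher and 1.91% lower. DESeq2 and limma-voom also called 0 genes, with 934 and 489 genes under an unadjusted p of 0.05. Of the 43 fitted log2 fold changes 21 were positive and 22 negative, with a median of -0.03, beside a median of 0.03 and 53.2% positive over all genes tested. The mean levels were close as well: the 43 genes averaged 4.2 ± 0.24 log2 CPM over the 14 Cbfb(het) tumors, 3.98 in the Cbfb(homo) tumor and 4.23 ± 0.22 over the 3 Cbfb(wt) tumors (mean ± SD). No gene of the 43 had groups that did not overlap, which 31 of the 18494 genes had. Adipocyte markers were the marker list with the most small p values, 5 of 5 under an unadjusted 0.05 and 0 past the adjusted threshold. Their summed level ran from 18.3 to 1090 TPM in Cbfb(het) tumors and from 24.1 to 94.9 in Cbfb(wt) tumors. At the highest sum, in Cbfb(het) 10, Fabp4 alone had 1084.31 TPM. Adipoq and Cidec were highest in Cbfb(het) 11, at 59.38 and 62.29 TPM, so the sum does not follow every marker of the list. The part of these markers in the levels of the 43 genes was not tested.

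What did vary was the individual tumor. Levels per gene length spanned more than 2 orders of magnitude among the 43 genes, from a median of 2.31 TPM for Mars2 to 422 for Lars2. That span rests on Lars2, since the next highest median was 83.4 for Tufm. At the low end, Mars2 was low per length only. Its mean log2 CPM, which is not corrected for length, was 4.54, against 2.1 for Mtrf1, the lowest of the 43. A given gene stayed within 5.32-fold across tumors in TPM, the widest being Wars2. The median SD of log2 CPM over 18 tumors was 0.37 for the 43 genes, against 0.62 for all genes tested. Among the 11803 tested genes within the same range of mean level it was 0.45, and 34 of the 43 lay below that. The SD ranged from 0.15 for Mterf3 to 0.56 for Tsfm.

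**Figure D1:**
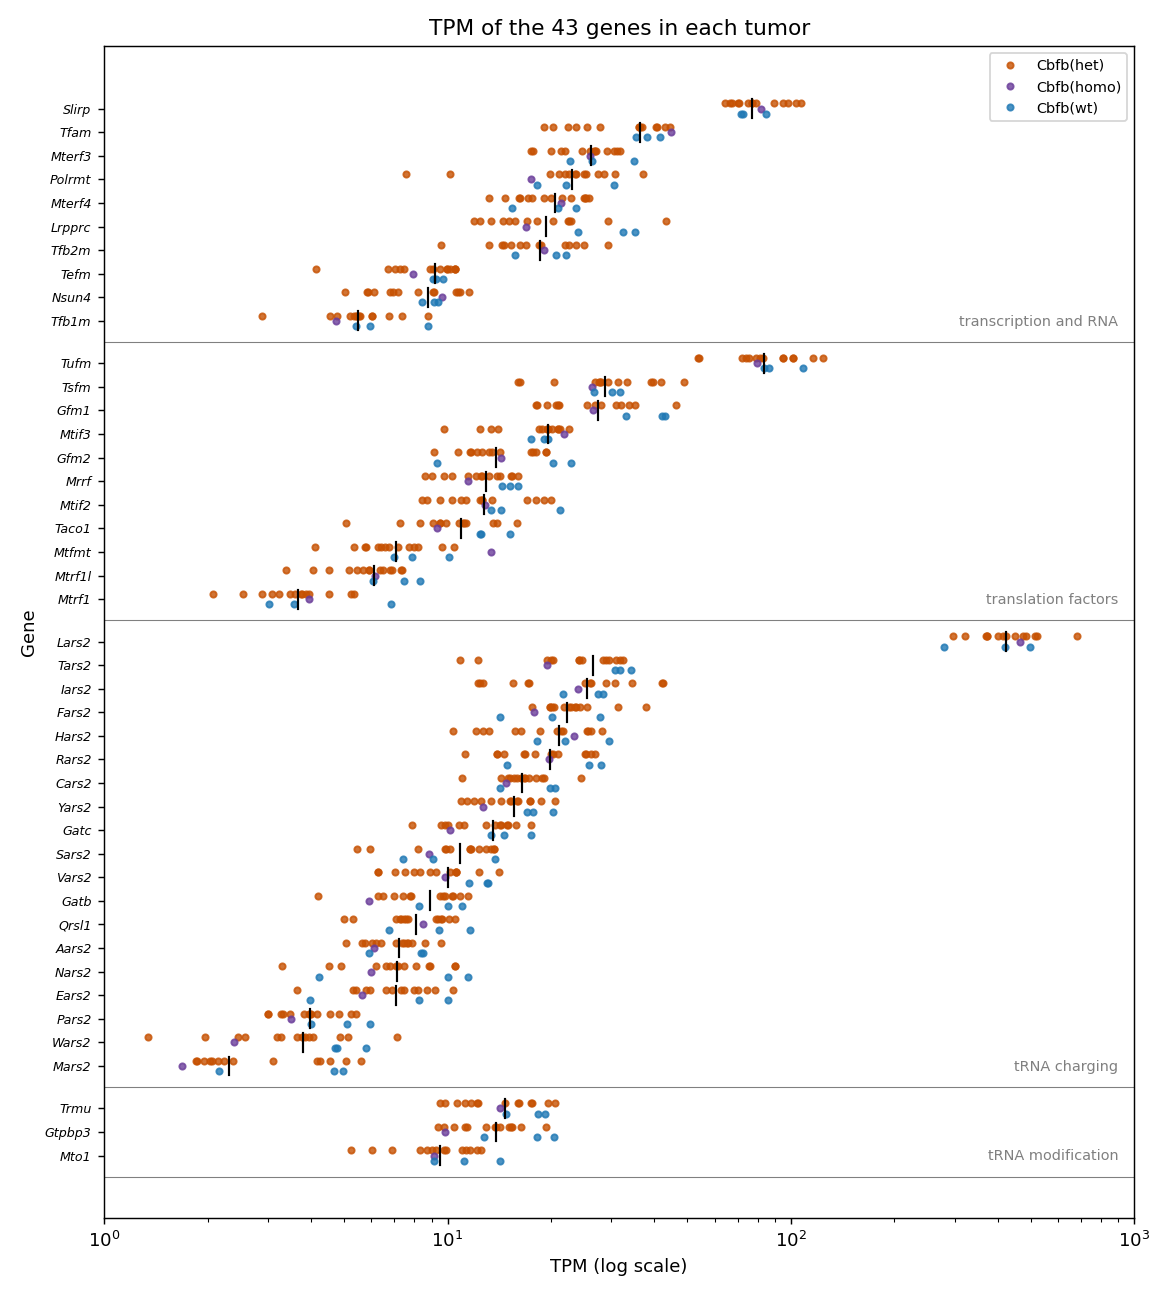
TPM of each of the 43 genes (log axis) in every tumor, by class and ordered by median; points are tumors coloured by genotype label and the black bar is the median over 18 tumors. Lars2 stands at a median of 422 TPM, apart from all others, and Cbfb(het) and Cbfb(wt) tumors overlap for every gene, while the Cbfb(homo) tumor lies outside both for Mtfmt, Tfam and Mars2.

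The genes of transcription and RNA handling had a median level of 20 TPM, from 5.49 for Tfb1m, a methyltransferase of the small rRNA, and 8.77 for Nsun4, a methyltransferase of the same rRNA, to 36.3 for Tfam and 77.0 for Slirp. Polrmt, the RNA polymerase of mitochondria (chromosome 10, 79736123 to 79746581, minus strand, GRCm38), had its lowest, median and highest TPM at 7.55, 23.6 and 37.01 in Cbfb(het) tumors, 17.46 in the Cbfb(homo) tumor, and 22.15, 18.21 and 30.60 in Cbfb(wt) tumors 1 to 3. The 2 lowest tumors were Cbfb(het) 10 at 7.55 and Cbfb(het) 14 at 10.15, while the other Cbfb(het) tumors lay from 19.84 to 37.01 and overlapped the Cbfb(wt) values. Its SD of 0.52 was the widest of the class, and the 0.15 of Mterf3, a factor known to bind mitochondrial DNA, the narrowest. Tfam, which packages mitochondrial DNA and bends its promoters, ran from 19.07 TPM in Cbfb(het) 14 to 44.42 within Cbfb(het), with 44.70 in the Cbfb(homo) tumor and 38.18, 41.67 and 35.36 in Cbfb(wt) tumors.

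Lrpprc, the RNA-binding protein that stabilizes mitochondrial mRNAs (chromosome 17, 84705247 to 84790789, minus strand), had the most negative fitted fold change of the 43 genes. Its lowest, median and highest TPM were 11.98, 17.6 and 43.29 in Cbfb(het) tumors, 16.95 was measured in the Cbfb(homo) tumor, and 32.39, 35.06 and 24.02 in Cbfb(wt) tumors. Only Cbfb(het) 1 and Cbfb(het) 12, at 43.29 and 29.44, were above the lowest Cbfb(wt) value, so the groups overlap through these tumors. The log2 fold change was -0.44 ± 0.25 (SE; edgeR, unadjusted p = 0.105, adjusted p = 0.999). Without Cbfb(het) 1 it was -0.57 ± 0.18 (unadjusted p = 0.00616), with the adjusted p still at 0.946. Slirp, the partner protein of LRPPRC (chromosome 12, 87443896 to 87452206, plus strand), stood on the positive side, with 64.20, 77.0 and 107.21 TPM as the lowest, median and highest in Cbfb(het) tumors, 81.90 in the Cbfb(homo) tumor and 71.45, 84.82 and 72.80 in Cbfb(wt) tumors. Its log2 fold change was 0.23 ± 0.21 (edgeR adjusted p = 0.999). Slirp shares 91.2% of its 31-base words with Snw1 on the opposite strand, and the strand setting of the counting is not given in the sources used here.

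Partners within this class were compared over the 18 tumors on log2 CPM, as part of 19 relations named together and adjusted over the 19 (two-sided permutation tests, 100000 resamples). Polrmt and Tfam had a Pearson r of 0.83 (p = 7e-05, adjusted 0.000266) and a Spearman rho of 0.74 (p = 0.00082, adjusted 0.00223). Without Cbfb(het) 10 and 14, the 2 tumors farthest from the median of Polrmt, r was 0.57 (adjusted p = 0.0348), and without Cbfb(het) 1 and Cbfb(wt) 2 in addition it was 0.43 (adjusted p = 0.197). On log2(TPM + 1) it was 0.53 with an adjusted p of 0.0574. Polrmt and Tefm, the elongation factor of the polymerase, had an r of 0.69 (p = 0.00253, adjusted 0.00534; rho 0.85, permutation p = 5e-05), with 0.72 without the same tumors but 0.42 on log2(TPM + 1) (adjusted p = 0.143). Polrmt and Tfb2m, the promoter-melting factor, had an r of 0.05 (permutation p = 0.853) and a rho of 0.21. That pair rests on Cbfb(het) 10 and 14, which had low Polrmt with Tfb2m above its mean. Without them r was 0.71 (adjusted permutation p = 0.00418), while on log2(TPM + 1) it was -0.28. Tfb2m shares 35.2% of its 31-base words with Gm1818 on the same strand. Lrpprc and Slirp, whose proteins form a complex, had an r of 0.04 and a rho of 0.01 (permutation p = 0.864 and 0.979), and -0.33 without Cbfb(het) 10 and 14.

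Mterf4 and Nsun4 encode proteins that act as a complex in assembling the mitochondrial ribosome, and their levels ran in opposite directions, with an r of -0.52 (permutation p = 0.0265, adjusted 0.0359; rho -0.50, adjusted 0.052). On log2(TPM + 1) r was -0.02. The call was also lost without Cbfb(het) 14 (r = -0.50, adjusted p = 0.0549) and without Cbfb(het) 10 and 14 (r = -0.45, adjusted p = 0.102). Nsun4 was highest on log2 CPM in Cbfb(het) 10 and 14, at 3.99 and 3.95, and lowest in Cbfb(het) 9 at 3.35. Mterf4 shares 34.4% of its 31-base words with Sned1 on the opposite strand.

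The promoter of Polrmt is shown because it holds both of the motifs that mark many nuclear genes for mitochondrial proteins. Windows of 300 bases, 250 before to 50 after the start, were taken from RefSeq on GRCm38.p6 and searched on both strands for the NRF1 motif (10 letters with 1 free position, as capitalized below), CCGGAAG (GABPA, an ETS motif) and AAGATGGC (YY1). Capitals mark a match in either orientation, and the 2 NRF1 matches of Polrmt overlap. The window lies at chr10:79746532-79746831 on the minus strand, printed 5′ to 3′ along the gene.
Polrmt: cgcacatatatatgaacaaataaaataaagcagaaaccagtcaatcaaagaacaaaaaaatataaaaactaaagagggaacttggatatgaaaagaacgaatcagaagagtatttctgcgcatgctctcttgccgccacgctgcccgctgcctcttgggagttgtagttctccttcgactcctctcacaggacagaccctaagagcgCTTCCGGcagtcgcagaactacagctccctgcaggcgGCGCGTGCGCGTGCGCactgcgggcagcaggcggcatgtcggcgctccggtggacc
RefSeq windows were found for 38 of the 43 genes (40 windows, since some genes have several starts). CCGGAAG occurred in 32.5% of the 40 windows, against 8.86% of all 32851 windows, AAGATGGC in 15% against 2.75%, and the NRF1 motif in 10% against 4.6%. At least 1 of the 3 was in 50% of the windows of these genes and in 14.7% of all windows. The full set of windows covers 27025 genes and was not limited to the genes tested here, while all 43 passed the count filter. A match describes these letters and was not tested as a binding site.

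Translation factors had a median level of 12.9 TPM. The elongation factor Tufm (83.4 TPM) and its exchange factor Tsfm (28.7 TPM) were highest, and the release factors Mtrf1 (3.67 TPM) and Mtrf1l (6.11 TPM) lowest. Tufm, which brings charged tRNAs to the ribosome (chromosome 7, 126487361 to 126490731, plus strand), had 53.55, 82.1 and 123.81 TPM as its lowest, median and highest in Cbfb(het) tumors, 79.91 in the Cbfb(homo) tumor and 86.32, 83.62 and 108.40 in Cbfb(wt) tumors. Cbfb(het) 10 and 14, at 53.55 and 54.20, were the lowest, and Cbfb(het) 7 and 3, at 123.81 and 116.08, the highest. The log2 fold change of Tufm was 0.10 ± 0.27 (SE; 95% interval -0.44 to 0.64; edgeR adjusted p = 0.999), with 0.01 without Cbfb(wt) 2 and 0.28 without Cbfb(wt) 3. Tufm shares 58.2% of its 31-base words with the pseudogene Gm9755, so its count is uncertain to that extent.

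Tsfm, which reloads the elongation factor with GTP (chromosome 10, 127011572 to 127030840, minus strand), had 16.01, 28.7 and 48.72 TPM as its lowest, median and highest in Cbfb(het) tumors, 26.42 in the Cbfb(homo) tumor and 26.77, 30.11 and 31.90 in Cbfb(wt) tumors. The order of tumors followed that of Tufm, with Cbfb(het) 10 and 14 lowest and Cbfb(het) 3 and 7 highest. Tufm and Tsfm had an r of 0.96 and a rho of 0.96 (permutation p = 1e-05 for each, the smallest that 100000 resamples can give; adjusted 0.000127). A correlation as high was reached by 0.00961% of all pairs of tested genes. Without Cbfb(het) 10 and 14 r was 0.93, and on log2(TPM + 1) it was 0.88 (adjusted permutation p = 0.00019 in both).

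The promoter windows of both genes are shown with their matches to the 3 motifs. Any link between these matches and the correlation was not tested. Tufm has 1 GABPA match, in capitals, and Tsfm has none of the 3 motifs. The windows lie at chr7:126487105-126487404 on the plus strand and chr10:127030765-127031064 on the minus strand.
Tufm: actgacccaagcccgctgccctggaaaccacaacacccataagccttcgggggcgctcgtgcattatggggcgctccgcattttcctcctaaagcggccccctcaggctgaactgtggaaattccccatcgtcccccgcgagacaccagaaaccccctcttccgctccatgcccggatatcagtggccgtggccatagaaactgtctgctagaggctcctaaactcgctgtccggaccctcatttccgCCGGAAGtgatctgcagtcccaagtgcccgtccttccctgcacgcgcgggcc
Tsfm: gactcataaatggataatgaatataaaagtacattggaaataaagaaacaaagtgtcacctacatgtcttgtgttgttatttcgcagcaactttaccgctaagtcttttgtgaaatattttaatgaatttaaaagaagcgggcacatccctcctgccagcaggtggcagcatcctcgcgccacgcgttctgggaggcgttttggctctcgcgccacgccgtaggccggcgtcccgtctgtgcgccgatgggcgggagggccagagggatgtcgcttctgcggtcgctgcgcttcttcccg

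Among the 13074 genes whose log2 CPM averaged 1 or more, Tsfm was the 6th most like Tufm by Pearson r over the 18 tumors. The 10 most alike were Aimp1 (r = 0.964), a scaffold of the cytosolic synthetase complex, Slc25a3 (0.961), the mitochondrial phosphate carrier, Nprl2 (0.961), Spcs2 (0.958), a signal peptidase subunit, Trabd (0.957), Tsfm (0.956), Hspbp1 (0.956), Coq4 (0.952), of coenzyme Q synthesis, Dpy30 (0.952) and Emc6 (0.951). Without Cbfb(het) 10 and 14 these 10 lay between 0.921 and 0.949. Within the set of 43, Sars2 ranked 20th, Polrmt 86th at 0.91, and Nsun4 had the value -0.81. These points share library scaling and the same 18 tumors. Hnrnpk, the gene of a nuclear RNA-binding protein, had an r of 0.25 with Tufm (permutation p = 0.317).

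**Figure D2:**
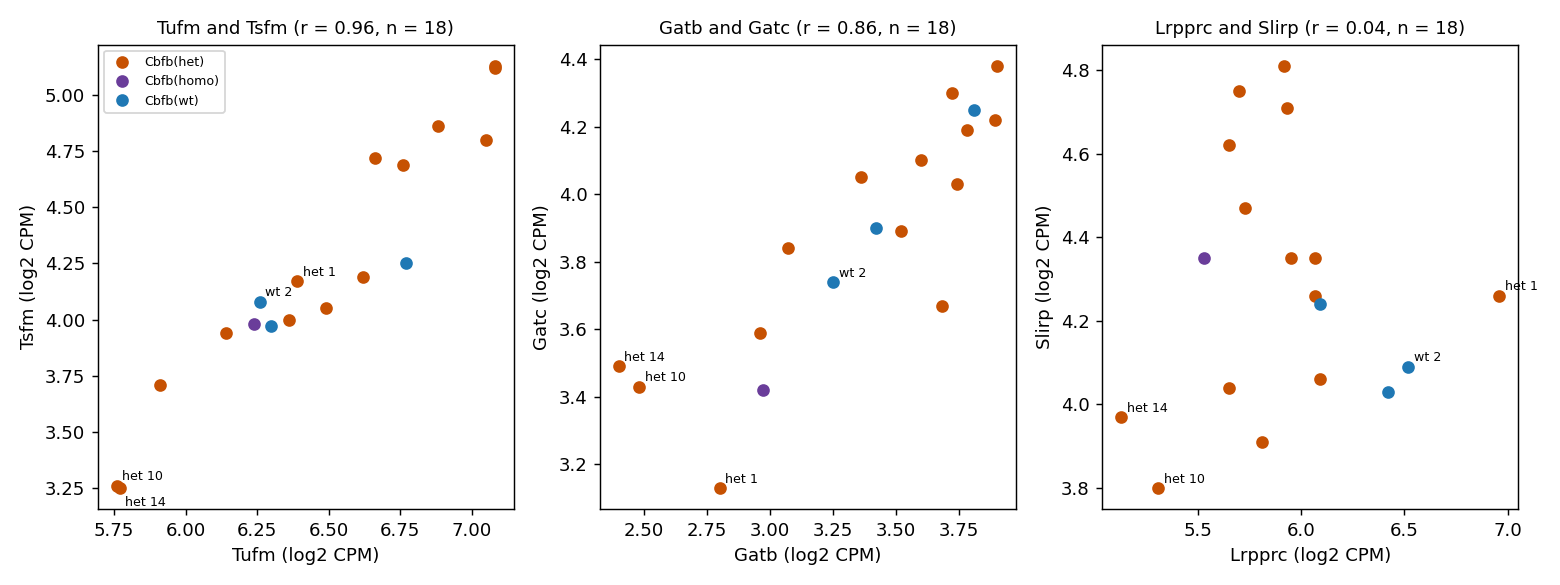
Levels in log2 CPM of 3 partner pairs in the 18 tumors; each point is a tumor, coloured by genotype label, with 4 tumors named. Tufm and Tsfm lie along a line (r = 0.96), Gatb and Gatc less tightly (r = 0.86), and Lrpprc and Slirp scatter widely (r = 0.04).

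On log2 CPM the SD of the other translation factors was 0.41 or less, against 0.42 for Tufm and 0.56 for Tsfm. Gfm1, the translocase of elongation (chromosome 3, 67430096 to 67476529, plus strand), had 18.16, 26.2 and 46.28 TPM as its lowest, median and highest in Cbfb(het) tumors, 26.60 in the Cbfb(homo) tumor and 43.13, 42.21 and 33.03 in Cbfb(wt) tumors. Cbfb(het) 1, at 46.28, was the highest of all 18, so the groups overlap. The log2 fold change was -0.34 ± 0.19 (SE; edgeR, unadjusted p = 0.0849, adjusted p = 0.999), and without Cbfb(het) 1 it was -0.41 ± 0.17 (unadjusted p = 0.0257, adjusted p = 0.946). Gfm2, the related factor that splits the ribosome after release, reached an unadjusted p of 0.0238 without Cbfb(wt) 2 (log2 fold change -0.46 ± 0.18, edgeR adjusted p = 0.978). Its level in that tumor was 9.35 TPM, against 22.85 and 20.24 in the other Cbfb(wt) tumors.

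Gfm2 and Mrrf, the recycling factor that works with it, had an r of 0.53 (permutation p = 0.024, adjusted 0.0351; rho 0.53). Without Cbfb(wt) 1 and 2 r was 0.45 (adjusted permutation p = 0.11). The call was also lost on log2(TPM + 1) (r = 0.51, adjusted 0.0754) and within the 14 Cbfb(het) tumors (r = 0.42, adjusted 0.174). It was lost as well without Cbfb(het) 10 and 14 (r = 0.55, adjusted 0.0548), but kept without Cbfb(het) 14 alone (r = 0.54, adjusted 0.0429). Mtfmt, which formylates the initiator tRNA, and Mtif2, the initiation factor that receives it, had an r of 0.62 (permutation p = 0.00528, adjusted 0.0100; rho 0.63). It was 0.78 without Cbfb(het) 1 and Cbfb(homo) 1 (adjusted 0.00158), 0.48 without Cbfb(het) 10 and 14 (adjusted 0.102), and 0.15 without Cbfb(het) 1, 10 and 14 and Cbfb(wt) 2 (adjusted 0.676). The initiation factors Mtif2 and Mtif3 had an r of 0.48 and a rho of 0.44 (permutation p = 0.0438 and 0.0722, adjusted 0.0555 and 0.0915). Taco1, needed for translation of the mt-Co1 mRNA, had an SD of 0.41 and a low of 5.05 TPM in Cbfb(het) 14 against a median of 10.9.

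The tRNA charging genes had a median level of 10.9 TPM, from 2.31 for Mars2 and 3.80 for Wars2 to 26.5 for Tars2 and 422 for Lars2, the leucyl-tRNA synthetase. Lars2 (chromosome 9, 123366927 to 123462666, plus strand) had 296.36, 419 and 681.66 TPM as its lowest, median and highest in Cbfb(het) tumors, 464.72 in the Cbfb(homo) tumor and 420.66, 497.39 and 279.42 in Cbfb(wt) tumors. The lowest of the 18 was Cbfb(wt) 3 and the highest Cbfb(het) 14. The log2 fold change was 0.36 ± 0.27 (SE; edgeR adjusted p = 0.999), with 0.18 without Cbfb(wt) 3 and 0.53 without Cbfb(wt) 2. The level of Lars2 was above that of the cytosolic leucyl synthetase Lars in all 18 tumors. The mean transcript length that RSEM gave it was 3752.09 to 3760.05 bases, near the 3756 bases of the annotated Lars2-209 transcript, which is marked for nonsense-mediated decay, while the full protein-coding Lars2-201 has 3894 bases. A stretch of 72 bases of Lars2-201, positions 3278 to 3349, is 98.6% identical to the gene Gm15564. Whether the level reflects reads of the Lars2 mRNA along its length was not tested.

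The other synthetases sat lower. On the positive side of the comparison by genotype Sars2, for serine, stood at 0.30 ± 0.33 and Fars2, for phenylalanine, at 0.22 ± 0.24 (log2 fold change, SE; edgeR adjusted p = 0.999 for both). Leaving out Cbfb(wt) 2 gave 0.10 for Sars2 and 0.02 for Fars2, and leaving out Cbfb(wt) 3 gave 0.63 and 0.48. The TPM of Sars2 had 5.44, 11.6 and 13.70 as the lowest, median and highest in Cbfb(het) tumors, 8.85 in the Cbfb(homo) tumor and 9.05, 7.42 and 13.79 in Cbfb(wt) tumors. On the negative side Wars2, for tryptophan, stood at -0.32 ± 0.25 and Pars2, for proline, at -0.20 ± 0.21 (SE; edgeR adjusted p = 0.999 for both). Pars2 stood at -0.34 without Cbfb(wt) 2 and -0.09 without Cbfb(wt) 1. Wars2 had 1.34, 3.71 and 7.13 TPM as its lowest, median and highest in Cbfb(het) tumors, 2.39 in the Cbfb(homo) tumor and 4.71, 5.77 and 4.77 in Cbfb(wt) tumors. Its highest tumor was Cbfb(het) 12 and its lowest Cbfb(het) 8, so the Cbfb(wt) values lie inside the Cbfb(het) range. Mars2, for methionine, varied most in the class (SD 0.54) and Pars2 least (SD 0.24).

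The 3 subunits of the glutamyl-tRNA amidotransferase kept together. Gatb had 4.2, 8.66 and 11.51 TPM as its lowest, median and highest in Cbfb(het) tumors, 5.89 in the Cbfb(homo) tumor and 8.27, 11.04 and 10.01 in Cbfb(wt) tumors. Cbfb(het) 10 was lowest and Cbfb(het) 7 highest, and Gatc, at 7.90 to 17.54 TPM, had its lowest value in Cbfb(het) 1 and its highest in Cbfb(het) 13. Gatb and Gatc had an r of 0.86 and a rho of 0.88 (permutation p = 3e-05 and 2e-05, adjusted 0.000142 and 0.000127), and 0.69 on log2(TPM + 1) (adjusted p = 0.00969). Gatb and the catalytic subunit gene Qrsl1 had an r of 0.87 and a rho of 0.88 (permutation p = 2e-05 for each, adjusted 0.000127), but 0.49 on log2(TPM + 1), with an adjusted p of 0.0805. Gatc and Qrsl1 had an r of 0.72 and a rho of 0.81 (permutation p = 0.00053 and 0.00013, adjusted 0.00168 and 0.000494) and 0.68 on log2(TPM + 1) (adjusted p = 0.00969). Tufm with Tsfm, Gatb with Gatc and Gatc with Qrsl1 are the 3 of the 19 relations that passed the adjusted threshold in every setting run.

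Iars2, for isoleucine (chromosome 1, 185284726 to 185329396, minus strand), ran against the class. It had 12.31, 25.5 and 42.36 TPM as its lowest, median and highest in Cbfb(het) tumors, 23.95 in the Cbfb(homo) tumor and 27.43, 21.76 and 28.31 in Cbfb(wt) tumors. Its highest tumors were Cbfb(het) 10 and 14, at 42.36 and 42.28, where Polrmt, Tufm and Tsfm were lowest. Iars2 shares 22.4% of its 31-base words with Rab3gap2 on the opposite strand. Its promoter window lies at chr1:185329352-185329651 on the minus strand and has 1 NRF1 match in capitals. The letters of this match are the same as in the 2 NRF1 matches of Polrmt.
Iars2: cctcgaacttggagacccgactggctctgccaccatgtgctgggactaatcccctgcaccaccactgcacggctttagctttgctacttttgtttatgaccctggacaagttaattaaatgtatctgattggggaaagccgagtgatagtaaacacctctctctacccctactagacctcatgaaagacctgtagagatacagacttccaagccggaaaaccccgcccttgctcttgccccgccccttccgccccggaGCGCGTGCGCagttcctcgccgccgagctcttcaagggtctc

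Each mitochondrial synthetase was also set beside the cytosolic enzyme for the same amino acid, as a ratio of TPM within a tumor. In 14 of 16 pairs the mitochondrial gene was lower in all 18 tumors, Iars2 was lower in 16, and Lars2 in 0. The median cytosolic level was 5.28 times the mitochondrial level over the 16 pairs, from 1.61 times for threonine and 1.70 for isoleucine to 15.8 for serine, 16.7 for asparagine and 19.4 for methionine. For leucine the cytosolic level was 0.152 times that of Lars2. Glutamate and proline share the cytosolic gene Eprs, so these 2 pairs are not independent.

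Cbfb(het) 1 held the lowest ratio in 10 of the 16 pairs, for example -6.35 (log2, mitochondrial over cytosolic) for asparagine against a median of -4.06, and -5.04 for glutamate against -2.72. Its cytosolic synthetases were high: 13 of 20 had their highest log2 CPM there and 10 of 20 their highest TPM. Nars, for asparagine, had 369.88 TPM in that tumor against a median of 137 in the other 17, and Tars had 171.91 against 44.3. Gars, for glycine, which has no separate mitochondrial counterpart among the 43 genes, had 414.53 against 90.4. All 13 genes of a list of the amino acid response, which ATF4 drives when amino acids run short, lay above their median in that tumor on both scales, and 10 of 13 had their highest value there. Mthfd2, of mitochondrial one-carbon metabolism, had 204.56 TPM against a median of 11.9 in the others, Asns 224.77 against 38.1 and Atf4 itself 632.24 against 198. Most of the 43 genes did not share this. In TPM 30 of the 43 were below the median of the other 17 tumors, with a median ratio of 0.861, against 1.65 for the cytosolic synthetases and 3.19 for the amino acid response genes. Cbfb(het) 1 was named here after its values were seen, it is 1 tumor with no replicate, and its epithelial markers summed to 750 TPM.

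**Figure D3:**
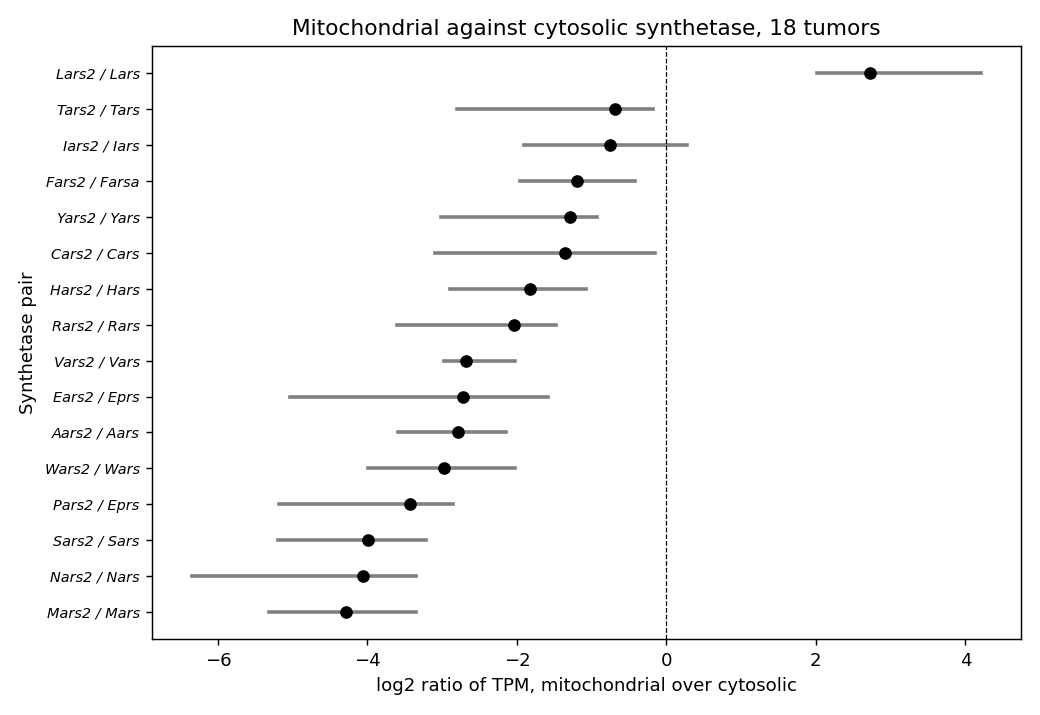
Log2 ratio of TPM, mitochondrial over cytosolic, for 16 synthetase pairs; the point is the median over 18 tumors and the line runs from the lowest to the highest tumor. Lars2 lies wholly above 0, Iars2 crosses it, and 14 pairs lie wholly below.

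The tRNA modification genes, Trmu (14.7 TPM), Gtpbp3 (13.8) and Mto1 (9.53), build the modified wobble uridine that lets mitochondrial tRNAs read their codons. Mto1, which works as a complex with GTPBP3, had 5.25, 9.53 and 12.52 TPM as its lowest, median and highest in Cbfb(het) tumors, 9.11 in the Cbfb(homo) tumor and 11.20, 9.12 and 14.19 in Cbfb(wt) tumors. Its lowest tumor was Cbfb(het) 10, and the highest Cbfb(wt) 3. All 3 fitted log2 fold changes were slightly negative, at -0.15 ± 0.26 for Mto1, -0.09 ± 0.22 for Gtpbp3 and -0.06 ± 0.21 for Trmu (SE; edgeR adjusted p = 0.999 for each). Mto1 and Gtpbp3 had an r of 0.69 and a rho of 0.54 (permutation p = 0.00175 and 0.022, adjusted 0.00475 and 0.0418), with 0.46 without Cbfb(het) 10 and 14 (adjusted p = 0.102). Without Cbfb(het) 1 and Cbfb(wt) 2 in addition, r was 0.65 (adjusted p = 0.0322). Gtpbp3 and Trmu, the thiolating enzyme, had an r of 0.56 and a rho of 0.49 (permutation p = 0.0171 and 0.0392, adjusted 0.0296 and 0.0532). Without Cbfb(homo) 1 and Cbfb(het) 14 r was 0.47 (adjusted permutation p = 0.11), and without Cbfb(het) 10 and 14 it was 0.46 (adjusted permutation p = 0.102). Without Cbfb(het) 1, 10 and 14 and Cbfb(wt) 2 it was 0.63 (adjusted permutation p = 0.0361).

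Read across classes on log2 CPM, tumors were high or low for many of the 43 genes at the same time. The 903 pairs of genes within the set had a median r of 0.43 over the 18 tumors and 77.5% of them were positive, where all pairs of tested genes had a median of 0 and 49.8% positive. A value of at least 0.5 was reached by 43.5% of the pairs of the set and by 11.2% of all pairs. Without Cbfb(het) 1, 10 and 14 the median was 0.45. By class, over all 18 tumors, the median was 0.49 among charging genes, 0.36 among translation factors and 0.09 among the genes of transcription and RNA handling. These pairs share libraries and scaling, their correlations were not taken on TPM, and no test was made of the set.

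Gatb, Polrmt and Tufm had the highest mean r with the other members, at 0.55, 0.53 and 0.52. Nsun4 had -0.45, with a negative r to 37 of the other 42, followed by Iars2 at -0.25, Wars2 at -0.10, Mterf3 at -0.09 and Lars2 at -0.06. In Nsun4, Iars2, Mterf3 and Lars2 the tumors Cbfb(het) 10 and 14 lay above the mean of the gene.

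The lowest mean log2 CPM over the 43 genes was in Cbfb(het) 14 (3.81), Cbfb(het) 10 (3.82) and Cbfb(het) 1 (3.90), and the highest in Cbfb(het) 8 (4.55), Cbfb(het) 7 (4.51) and Cbfb(wt) 3 (4.45). Cbfb(het) 1 was the lowest tumor for 14 of the 43 genes, Cbfb(het) 14 for 9 and Cbfb(het) 10 for 7, while Cbfb(het) 8 was the highest for 16. Cbfb(het) 1 was also highest for 4, Lrpprc, Gfm1, Aars2 and Vars2. The place of several tumors depends on the scale, and Cbfb(het) 8 moved the most. In that tumor 6 milk protein genes took 18.2% of all TPM, the median of all genes was 0.64 lower on log2 TPM than on log2 CPM relative to the median tumor, and the 43 genes ranked last of 18 in TPM. Cbfb(het) 7 ranked 2nd and Cbfb(wt) 3 1st in TPM, and Cbfb(het) 10 and 14 ranked 17th and 16th, so these kept their side. Others did not: Cbfb(het) 2 and 4 went from 6th and 7th on log2 CPM to 15th and 13th in TPM. Cbfb(het) 12 and 13 went from 14th and 11th to 4th and 3rd.

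**Figure D4:**
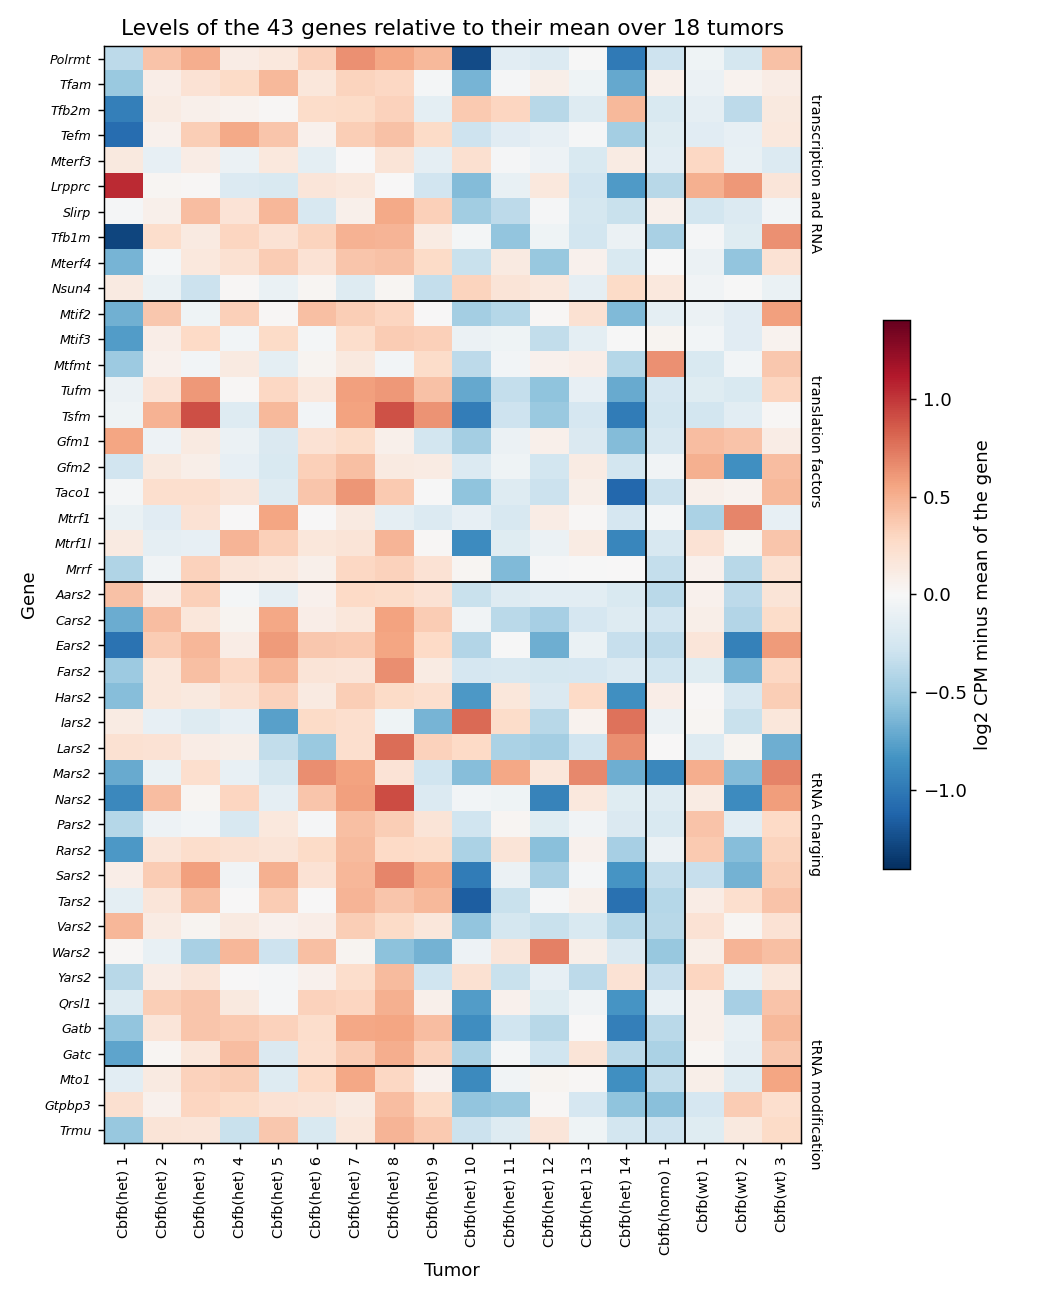
Log2 CPM of each of the 43 genes minus its mean over 18 tumors (colour), in classes from top to bottom and in the order Cbfb(het), Cbfb(homo), Cbfb(wt) from left to right. Cbfb(het) 10 and 14 are low for most genes but high for Nsun4 and Iars2, and Cbfb(het) 1 combines low values with a high Lrpprc.

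The 3 lowest tumors were also poor in epithelial RNA. Fibroblast markers summed to 20700 and 20800 TPM in Cbfb(het) 10 and 14, 15600 in Cbfb(het) 12, 7660 in Cbfb(wt) 2 and 3160 in Cbfb(het) 1, against 112 to 1950 in the other 13 tumors. Among the 13 tumors with 2400 TPM or more of epithelial markers, the mean of the 43 genes ran from 3.98 in the Cbfb(homo) tumor to 4.55. In the other 5 it ran from 3.81 to 4.02, on log2 CPM. In TPM this order was not kept, since Cbfb(het) 12 ranked 4th and Cbfb(wt) 2 10th. Among markers of brown fat, a tissue rich in mitochondria, Ucp1 was at 0.45 TPM or less in all 18 tumors, while Cidea ran from 0.53 to 105.94 TPM and Elovl3 from 0 to 116.57. The 3 summed to 0.67 to 165 TPM in Cbfb(het) tumors, 17.6 in the Cbfb(homo) tumor and 1.11 to 23.3 in Cbfb(wt) tumors. The part of cell makeup in the levels of the 43 genes was not tested.

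**Figure D5:**
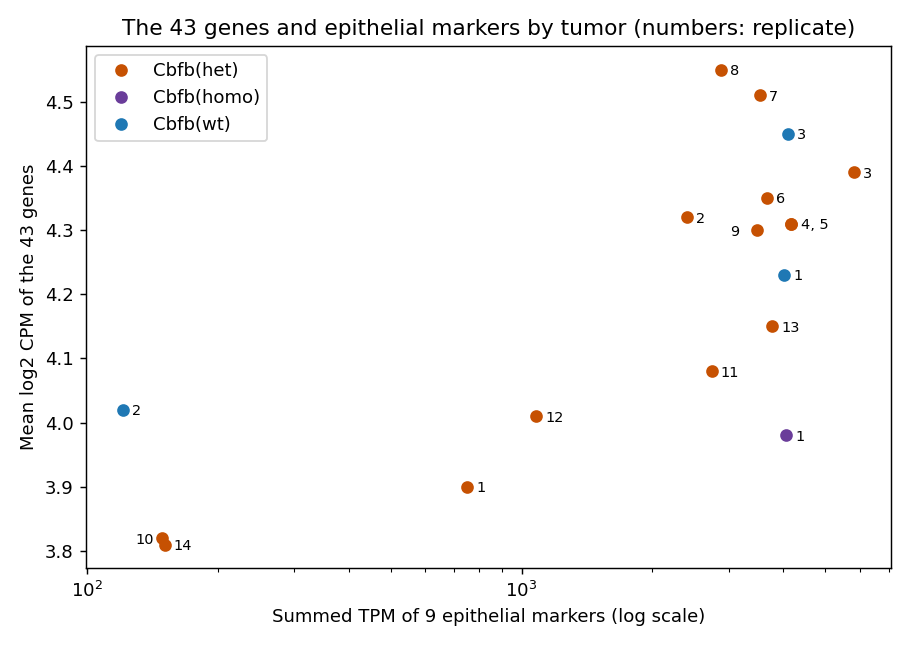
Mean log2 CPM of the 43 genes against the summed TPM of 9 epithelial markers (log axis); each point is a tumor, numbered by replicate and coloured by genotype label. The 5 tumors with 1080 TPM or less lie between 3.81 and 4.02, and the Cbfb(homo) tumor, with 4060 TPM, lies at 3.98.

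With a single animal, the Cbfb(homo) tumor is given by its values. On log2 CPM 38 of the 43 genes were below their median over the 18 tumors and 5 above, and on TPM 29 were below and 14 above. It was the lowest of 18 on log2 CPM for Aars2, Mars2 and Gtpbp3 and the highest for Mtfmt, at 13.35 TPM against a highest value of 10.45 in Cbfb(het) tumors and 10.07 in Cbfb(wt) tumors. For 39 of the 43 its value lay within the range of the Cbfb(het) tumors. Its proliferation markers summed to 133 TPM, the lowest of the 18.

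The mRNAs encoded by mitochondrial DNA, whose synthesis and translation these genes serve, took 2% to 7.45% of TPM. They summed to 20000 to 74500 TPM with a median of 39700 in Cbfb(het) tumors, 40200 in the Cbfb(homo) tumor and 37300, 48300 and 54800 in Cbfb(wt) tumors. The short mt-Atp8 gene made up 18.8% to 52.3% of that sum. Of the 13 genes 0 passed the adjusted threshold and 2 had an unadjusted p under 0.05, with 7 positive and 6 negative fold changes and a median of 0.05.

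The summed TPM of these mRNAs (log2) was set against members on log2 CPM, so these relations mix scales. The scales part in Cbfb(het) 8, the tumor highest in Slirp on log2 CPM. There 10 of the 13 mRNAs were above their median on log2 CPM but 4 in TPM. Tumors with a higher summed TPM had less Slirp on log2 CPM, with an r of -0.82 and a rho of -0.76 (permutation p = 2e-05 and 0.00041, adjusted 0.000127 and 0.0013). It was -0.72 without mt-Atp8 in the sum (adjusted p = 0.00215) and -0.76 without Cbfb(het) 10 and 14 (adjusted p = 0.00313), but -0.41 with Slirp on log2(TPM + 1) (adjusted p = 0.143). Polrmt had an r of -0.67 and a rho of -0.60 (permutation p = 0.00211 and 0.0103, adjusted 0.00501 and 0.0217) and -0.65 on log2(TPM + 1). That relation rests on Cbfb(het) 10 and 14, which had the most mitochondrial mRNA and the least Polrmt: without them r was -0.45 (adjusted p = 0.102). Tfam had an r of -0.54 and a rho of -0.52 (permutation p = 0.0215 and 0.0298, adjusted 0.034 and 0.0472). It was -0.21 without those tumors and -0.14 with Tfam on log2(TPM + 1) (adjusted permutation p = 0.674). Lrpprc had an r of -0.26 (permutation p = 0.297). Of the 19 relations 14 passed the adjusted threshold by Pearson r, 10 positive and 4 negative, and 12 by Spearman rho. Among all pairs of tested genes, 0.00961% had an r as high as Tufm with Tsfm and 9.66% as high as Gfm2 with Mrrf. The other positive relations past the threshold lay between, with 5.67% for Mtfmt with Mtif2 and 8.4% for Gtpbp3 with Trmu. An r as low as that of Mterf4 with Nsun4 was reached by 9.76%. Of all pairs within the 43 genes 43.5% had an r of at least 0.5.

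The neighbouring lists gave no called gene between Cbfb(het) and Cbfb(wt) tumors either. Cytosolic synthetases had 11 positive and 9 negative fold changes of 20, with a median of 0.02 and a median SD of 0.38, close to the 0.39 of the mitochondrial charging genes. Genes of mitochondrial RNA processing and DNA maintenance had 11 positive and 15 negative of 26, with a median of -0.03 and a median SD of 0.29. Regulators of mitochondrial biogenesis had 1 positive and 8 negative of 9, with a median of -0.09. Among them Ppargc1a, the coactivator of the program, was at 0.14 to 1.13 TPM in all 18 tumors, and Myc at 41.38 to 112.43. The amino acid response list had 9 positive and 4 negative of 13, a median of 0.10 and the widest median SD of these lists, 0.71.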

How the data were processed

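RNA from 18 mammary tumors was read as TruSeq stranded mRNA libraries, per the labels' protocols. The authors deposited, for each tumor, a gene table with expected counts (RSEM's estimated reads, not whole and not normalized), TPM (scaled by length and to 1 total, so carrying no depth) and mean transcript length in bases, per the file headers. Tools named, per the submitters' processing notes, are RSEM 1.3.1 and STAR 2.7.0f, with build mm10; settings of either tool: not given in the sources used here. Positions come from GENCODE M21 of GRCm38, in which each of the 55450 deposited gene IDs was found.

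Groups were taken from the genotype labels. Cbfb(het) was compared with Cbfb(wt) on rounded expected counts with edgeR 4.0.16 in R 4.3.3: filterByExpr, TMM factors, robust quasi-likelihood F-test, no covariate, Benjamini-Hochberg over 18494 genes. DESeq2 1.42.0, limma 3.58.1 (voom), other filters, scalings and left-out tumors were alternatives. Levels are log2 CPM with TMM and a prior count of 2, and TPM where genes are compared and for the sum of mitochondrial mRNAs. The gene test and the permutation test were tested on simulated data. Words of 31 bases shared between annotated transcripts (at least 100 of them) mark genes whose counts may be mixed. Nothing in the labels ties tumors by batch, and p-values measure the spread between animals.

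The members and all gene lists were chosen with earlier results of these data known. Fold changes are given for the 4 members with the smallest p on each side, Tufm, Lrpprc, and the tRNA modification genes and Gfm2, which were added after their values were seen. Levels are given for the 2 highest and 2 lowest members of a class and spreads for its extremes, and other members with values were chosen after these were seen. In no member did a single tumor stand more than 1 log2 unit from the next.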

Additional observations from a re-analysis of the deposited data

How the results depend on the processing

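Between Cbfb(het) and Cbfb(wt) tumors 1 gene was called with no low-count filter and 1 with all 18 tumors in the fit, in both cases Tex11, which is not among the 43, against 0 otherwise. The Cbfb difference ranged from 0.18 to 0.98 when a Cbfb(wt) tumor was left out. On log2(TPM + 1) the median difference over all genes was -0.12, against 0.02 on log2 CPM. Of the 19 relations 14 passed the adjusted threshold, but 6 on log2(TPM + 1), 6 on log2(TPM + 0.1), 8 without Cbfb(het) 10 and 14, and 8 without Cbfb(het) 1, 10 and 14 and Cbfb(wt) 2. Settings that left out these tumors, the one without mt-Atp8 in the sum and the ranking of tumors by TPM were chosen after seeing the data. Of 156 alternative values for single relations 103 kept their direction and side of the threshold, 39 fell below it, 3 passed it and 11 changed sign. Lrpprc with Slirp went to -0.33 without Cbfb(het) 10 and 14, -0.32 without 4 tumors, -0.08 without the 2 farthest, and -0.09 without Cbfb(het) 14 against 0.11 without Cbfb(wt) 2. Polrmt with Tfb2m went to -0.28 on both TPM scales and -0.03 within the 14 Cbfb(het) tumors. Lrpprc with mitochondrial mRNA went to 0.05 on both TPM scales, 0.10 without Cbfb(het) 10 and 14 and 0.20 without 4 tumors. The cause was not tested. Fitted fold changes of Fars2, Gfm1, Lars2, Lrpprc, Pars2, Sars2, Slirp, Tufm and Wars2 kept their sign with each tumor left out, though their size moved. No paired analysis was possible because the replicate numbers follow sample order only and the labels tie no tumors together. With 3 Cbfb(wt) tumors, changes within the spread between tumors were not detectable, so their absence is not shown.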
